A study of Mus musculus with 34 samples.

Results

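The Wnt pathway genes described here are the secreted Wnt ligands, their Frizzled (*Fzd*) receptors and co-receptors, the secreted inhibitors *Sfrp* and *Dkk*, the R-spondins (*Rspo*) that strengthen Wnt signals, and the intracellular effectors. All genes whose symbol starts with Wnt, Fzd, Sfrp, Dkk or Rspo followed by a digit were taken, together with *Lrp5*, *Lrp6*, *Lgr4*, *Ror1*, *Ror2*, *Axin1*, *Axin2*, *Ctnnb1*, *Tcf7*, *Tcf7l1*, *Tcf7l2* and *Lef1*, which gave 54 of 23109 genes. Their expression was read from RNA-Seq of mouse brown preadipocytes, which were isolated from the interscapular brown fat of newborn pups and immortalized with SV40T. Each of 14 conditions had 1 library. The question of the study was how adipogenesis depends on histone H3K36 methylation and on Nsd2, an enzyme that dimethylates H3K36. In the first experiment, cells carried a retrovirus for histone H3.3, either wild-type (WT) or with lysine 36 replaced by methionine (K36M), and were collected at D0, D2 and D7 of differentiation. In the second experiment, WT or K36M cells also expressed ectopic PPARγ and received DMSO (time 0 h in the labels) or its ligand rosiglitazone (Rosi, 24 h). The study describes both treatments as lasting 24 h, on preadipocytes that were sub-confluent. If the times in the labels hold, ligand and time in culture cannot be told apart in the DMSO and Rosi comparisons. The third experiment used lentiviral shRNA, either a control (Ctrl) or one directed at *Nsd2* (KD), with cells taken at D0 and D2. The labels give strain C57BL/6J and, for all groups, GR-flox/flox cells (a floxed glucocorticoid receptor gene), whereas the study's methods name wild-type pups as the source of such cells. The protocol text that all samples share also speaks of a Vec or Cre retrovirus giving WT or GR KO cells, and no sample's own label says which it received. *Nr3c1*, which encodes the receptor, was expressed in all 14 libraries at 10.1 to 30.9 RPKM (reads scaled to transcript length and to mapped reads), a level over the whole transcript that does not show whether a floxed exon was present. The confluent D0 cells were induced with insulin, T3, IBMX, dexamethasone and indomethacin for 2 days. Each group is a population of immortalized cells, and the sources used here do not say whether all experiments used the same line. Histone H3.3 and PPARγ were expressed from viral vectors.

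Wnt ligands bind a Frizzled receptor and an Lrp5 or Lrp6 co-receptor at the cell surface, which stops a complex built on Axin from marking β-catenin for destruction. β-catenin then enters the nucleus and activates target genes with the Tcf and Lef transcription factors. In the preadipocyte field, canonical Wnt signalling is known as a brake on differentiation, acting upstream of PPARγ and C/EBPα, and secreted antagonists are known to loosen it.

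With 1 library per condition there was no replicate and no test of a condition. Levels are given in the order D0, D2 and D7, then DMSO and Rosi for cells with PPARγ, then D0 and D2 for Ctrl and KD. A gene was compared in 2 libraries when its RPKM was 1 or more in either of them, and it was called higher or lower when the ratio was over 2-fold. Where a log2 ratio is given with a 95% interval, the interval is an exact binomial one from recovered whole reads, covers counting error only, and compares libraries rather than conditions. The libraries held 12213559 to 24365867 mapped reads, so that 3 reads of a 1-kb transcript correspond to an RPKM of 0.123 to 0.246. *Nsd2* had 19.9 and 29.0 RPKM at D0 and D2 in Ctrl and 5.85 and 7.01 in KD. The summed RPKM of 10 adipocyte markers was 5750 and 5340 in WT cells at D2 and D7 and 2077 and 513 in K36M cells, and it was 2516 in Ctrl and 163 in KD at D2. Most of these sums was *Fabp4* and *Lpl*, with 3249 and 2145 RPKM in WT cells at D2. Of 8 markers compared at D2, 5 were lower and 1 (*Prdm16*) higher in K36M than in WT cells. The shares of all genes were 4.37% and 11.2%. *Adipoq*, with 6.16 RPKM in WT and 10.6 in K36M cells at D2, was not called. In KD cells 7 of 8 were lower than in Ctrl at D2, against 9.57% of all genes. The brown fat markers *Ucp1* and *Cidea* did not exceed 0.194 and 0.0973 RPKM in any library. Summed markers of endothelial cells (at most 2.47 RPKM), macrophages (at most 3.11, 4 of 5 markers measured), muscle (at most 4.04) and epithelium (at most 12.5) were low. The PPARγ K36M libraries had more genes above 0 (87.1% and 86.5% of all genes) than the other 12 (68.7% to 79.6%), and 54 and 53 Wnt pathway genes above 0 against 43 to 52. In bulk samples, fewer cells of a type and less RNA per cell cannot be told apart.

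Most Wnt ligand genes were silent or nearly silent, whereas the receptors and effectors were broadly expressed. In at least 1 library, 35 of the 54 genes reached 1 RPKM. These were 8 of 19 ligands, 13 of 14 receptors and co-receptors, 5 of 8 secreted inhibitors, 3 of 5 R-spondins and *Lgr4*, 1 of 2 Axin genes and 5 of 5 nuclear effectors. The other 19 genes had at most 0.906 RPKM in any library. They include *Wnt1* and *Wnt3a*, the classical activators of β-catenin, at no more than 0.156 and 0.0879 RPKM, and *Dkk1*, a soluble inhibitor that binds Lrp5 and Lrp6, at no more than 0.0418. They also include *Axin2*, a feedback target of β-catenin, at 0.0108 to 0.865 RPKM. *Fzd10os*, an RNA antisense to *Fzd10*, reached 0.657 RPKM, and the deposited values do not state whether strand was used in counting. Over all 14 libraries, the gene with the highest level per length was *Ctnnb1*, which encodes β-catenin, except in the K36M library at D7, where *Sfrp1* was higher with 214 against 181 RPKM.

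**Figure D1:**
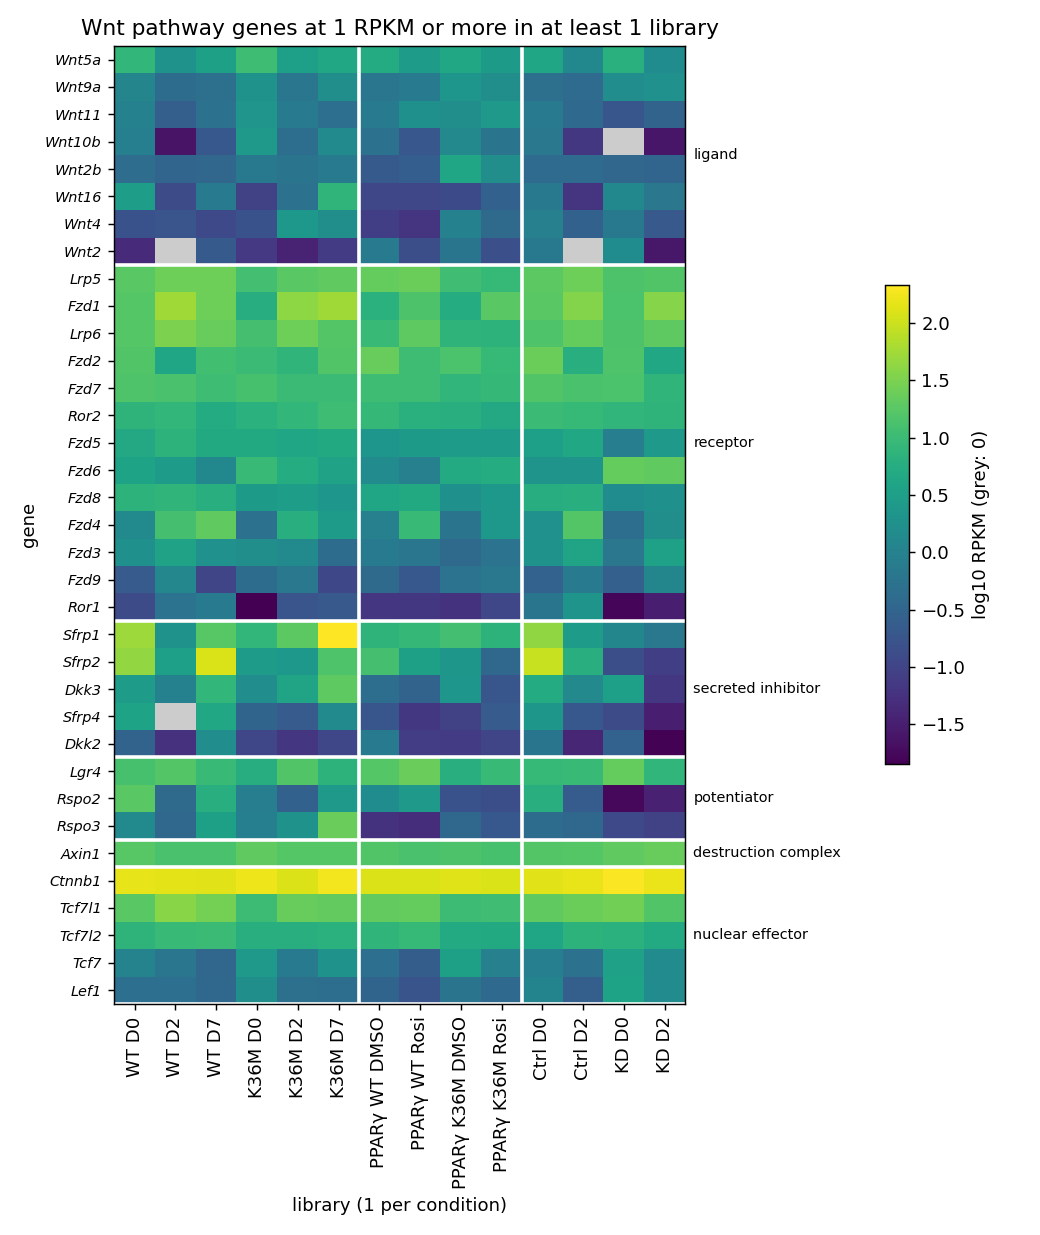
Heat map of RPKM on a log10 colour scale for the 35 Wnt pathway genes that reached 1 RPKM, grouped by role (gene rows) in 14 libraries (columns, 1 library each), with a grey cell for a value of 0. The ligands are mostly below 1 RPKM, *Ctnnb1* is at 125.0 to 202 RPKM in every library, and the secreted inhibitors and R-spondins change most between columns.

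Promoter sequences are shown for a secreted inhibitor, a receptor and a ligand that are described in detail below. RefSeq promoter windows of 300 bases (build GRCm38.p6, from 250 bases before to 50 after the annotated start) were found for 36 of the 54 genes, with 45 windows in all. Of the 31 genes over 2-fold different in at least 1 comparison, 19 had a window. Genes without a window, which the motif counts do not cover, include *Sfrp1*, *Sfrp4*, *Rspo2*, *Rspo3*, *Dkk3*, *Fzd6* and *Fzd8*. The capitals mark each CG dinucleotide, and the lower-case letters are the rest of the window.
Sfrp2, chr3:83766071-83766370, plus strand: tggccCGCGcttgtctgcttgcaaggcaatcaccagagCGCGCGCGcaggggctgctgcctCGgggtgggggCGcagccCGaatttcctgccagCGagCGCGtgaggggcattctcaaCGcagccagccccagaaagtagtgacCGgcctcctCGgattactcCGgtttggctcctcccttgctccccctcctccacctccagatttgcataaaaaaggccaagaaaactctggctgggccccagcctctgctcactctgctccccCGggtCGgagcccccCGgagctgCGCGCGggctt
Fzd4, chr7:89404116-89404415, plus strand: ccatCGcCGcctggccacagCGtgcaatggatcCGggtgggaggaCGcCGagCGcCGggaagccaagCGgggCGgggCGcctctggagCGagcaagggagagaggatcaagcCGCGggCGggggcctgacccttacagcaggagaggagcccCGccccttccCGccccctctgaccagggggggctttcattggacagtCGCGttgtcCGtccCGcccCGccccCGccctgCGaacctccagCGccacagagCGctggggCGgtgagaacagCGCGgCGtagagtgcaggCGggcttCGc
Wnt16, chr6:22287977-22288276, plus strand: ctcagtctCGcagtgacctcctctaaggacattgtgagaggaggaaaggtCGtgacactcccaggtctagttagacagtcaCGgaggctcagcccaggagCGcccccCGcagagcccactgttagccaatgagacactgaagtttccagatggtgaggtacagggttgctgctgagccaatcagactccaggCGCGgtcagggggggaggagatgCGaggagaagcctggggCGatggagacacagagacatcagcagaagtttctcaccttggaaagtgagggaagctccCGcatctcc
The *Sfrp2* window holds 22 CG dinucleotides, the *Fzd4* window 32 and the *Wnt16* window 10, against a median of 27 over the 45 windows of these genes and of 7 over all 32851 promoter windows (quartiles 3 and 20). The Tcf/Lef motif, searched as CTTTGAA or CTTTGAT or CTTTGTA or CTTTGTT on both strands, was found in 7 of the 45 windows (15.6%), and in 16.9% of all windows. Those 7 windows belong to *Dkk1*, *Fzd7*, *Lef1*, *Tcf7l2*, *Wnt11*, *Wnt3* and *Wnt5b*, 1 window each. The DR1 element of PPARγ:RXR, searched as a perfect direct repeat with any base as spacer, was found in 0 of the 45 windows and in 0.0396% of all windows.

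Before differentiation, K36M cells had less of 3 secreted inhibitors and of *Rspo2* than WT cells, and more *Lef1* and *Tcf7*. At D0, 14 of 29 Wnt pathway genes compared were over 2-fold different, 5 higher and 9 lower, when 11.4% of all genes compared were called (5.02% higher and 6.36% lower). The 9 lower genes were the inhibitors *Sfrp1*, *Sfrp2* and *Sfrp4*, the potentiators *Rspo2* and *Lgr4*, the receptors *Fzd1*, *Fzd4* and *Fzd8*, and the ligand *Wnt16*. The 5 higher genes were the ligands *Wnt10b* and *Wnt11*, the receptor *Fzd6*, and the transcription factors *Lef1* and *Tcf7*. The median log2 ratio was -0.43 over the 29 genes and 0.09 over all genes compared. At D2 the count was 7 of 23 (4 higher and 3 lower) against 15.6% of all genes (11.2% and 4.37%), with medians of -0.34 and 0.07. At D7 it was 18 of 29 (11 higher and 7 lower) against 20.2% of all genes (11.7% and 8.46%), with medians of 0.33 and 0.12. Scaling each pair of libraries to the median gene moved all ratios at D7 by 0.110 (log2) and left 16 calls, without *Fzd1* and *Ror2*.

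In KD cells, *Sfrp1*, *Sfrp2*, *Sfrp4* and *Rspo2* were also lower at D0, and *Lef1* and *Tcf7* were higher at D0 and D2. At D0, 14 of 27 genes were over 2-fold different in KD (6 higher and 8 lower), against 17.4% of all genes (6.61% higher and 10.8% lower), with a median log2 ratio of -0.13 over these genes and of -0.002 over all. At D2, 10 of 25 were different (4 higher and 6 lower), against 14.4% of all genes (4.88% and 9.57%), with medians of -0.24 and -0.05. The Ctrl and WT libraries are the controls of their experiments at the same stages. They differ at least by vector, since WT cells expressed ectopic histone H3.3 and Ctrl cells a control shRNA. Whether they also differ by line or batch is not stated. Between them, 7 of 27 genes were over 2-fold different at D0 (2 higher and 5 lower in Ctrl, 22.2% of all genes, 7.10% higher and 15.1% lower) and 1 of 22 at D2, higher in Ctrl (11.2% of all genes, 4.82% higher and 6.42% lower). At D0 the 2 higher were *Lef1* and *Sfrp2*, and the 5 lower were *Rspo2*, *Rspo3*, *Wnt16*, *Wnt5a* and *Wnt9a*. The gene at D2 was *Ror1*. The Ctrl to WT ratios of all genes were shifted by -0.225 at D0 and -0.138 at D2 (log2), and relative to that shift 3 genes were higher and 3 lower at D0 and 2 were higher at D2. Among all genes called between them at D0, the share higher in Ctrl was 31.9%, and 49.5% relative to the shift. At D0 the median absolute log2 ratio was 0.89 between K36M and WT, with 0.46 between Ctrl and WT for the same 29 genes. It was 1.13 between KD and Ctrl at D0, with 0.50 between Ctrl and WT for the same 27 genes. At D2 it was 0.76 for K36M and 0.69 for KD, with 0.49 between Ctrl and WT in both sets. Of the 14 genes called between KD and Ctrl at D0, 13 had a larger absolute ratio there than between Ctrl and WT, and *Wnt2* did not. The 14 were picked by the KD to Ctrl ratio, so that outcome was nearly fixed in advance and nothing is drawn from it. The medians are over genes that reached 1 RPKM in the perturbed pair, some only in its K36M or KD library, which can enlarge the ratio there. The K36M, KD and control comparisons also share the WT or Ctrl libraries, so the values stand side by side without a test.

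From D0 to D2, 10 to 15 Wnt pathway genes were over 2-fold different in each of the 4 populations. In WT cells 15 of 27 genes changed over 2-fold from D0 to D2 (5 higher and 10 lower, against 26.7% of all genes, 9.38% higher and 17.3% lower), and 11 of 25 changed from D2 to D7 (8 higher and 3 lower, against 20.8%, 15.7% and 5.08% by direction). In K36M cells the counts were 15 of 27 from D0 to D2 (9 higher and 6 lower, against 21.5%, 10.2% and 11.2%) and 14 of 28 from D2 to D7 (11 higher and 3 lower, against 22.7%, 15.7% and 7.02%). From D0 to D2, 10 of 24 genes changed in Ctrl (2 higher and 8 lower, against 27.4%, 11.3% and 16.1%) and 12 of 25 in KD (5 higher and 7 lower, against 28.6%, 11.8% and 16.8%). With ectopic PPARγ, Rosi changed 6 of 20 genes in WT cells (4 higher and 2 lower, against 15.0%, 9.96% and 5.05%) and 7 of 24 in K36M cells (2 higher and 5 lower, against 16.8%, 7.90% and 8.85%). Between K36M and WT cells with PPARγ, 12 of 24 genes differed in DMSO (7 higher and 5 lower, against 8.20%, 5.09% and 3.11%) and 10 of 22 in Rosi (3 higher and 7 lower, against 19.1%, 7.02% and 12.1%). In Rosi the shift of all genes was -0.108 (log2), and relative to it 9 genes were called, without *Fzd8*.

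Among the ligands, *Wnt5a* was the only gene above 1 RPKM in all 14 libraries. *Wnt5a*, a ligand that mostly acts through Ror receptors without β-catenin, had 8.16, 1.94 and 3.37 RPKM at D0, D2 and D7 in WT cells, and K36M cells had 10.8, 3.27 and 4.62. Its levels in DMSO and Rosi were 5.22 and 2.80 RPKM in WT and 4.33 and 2.72 in K36M cells with PPARγ, and at D0 and D2 they were 4.03 and 1.29 in Ctrl and 6.49 and 1.52 in KD. It fell over 2-fold from D0 to D2 in all 4 populations, by 4.22-fold in WT, 3.30-fold in K36M, 3.12-fold in Ctrl and 4.26-fold in KD. No K36M to WT or KD to Ctrl ratio of *Wnt5a* exceeded 2-fold.

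*Wnt10b*, a ligand known to hold preadipocytes undifferentiated (chromosome 15, 98602184 to 98608581 on mm9), was higher with K36M at D0 and D7 and had no read in KD cells at D0. WT cells had 0.903, 0.0235 and 0.202 RPKM at D0, D2 and D7, and K36M cells had 2.51, 0.466 and 1.36, so every K36M value exceeded the WT value of the same day. The D0 log2 ratio was 1.48 (95% counting interval 0.95 to 2.02), and the D7 ratio was 2.75 (95% counting interval 1.49 to 4.29). It had 0.537 and 0.190 RPKM in DMSO and Rosi in WT cells with PPARγ and 1.33 and 0.568 in K36M cells with PPARγ, a log2 ratio of 1.31 (95% counting interval 0.64 to 2.01) in DMSO. In Ctrl cells it had 0.659 and 0.0668 RPKM at D0 and D2, and in KD cells 0 and 0.0254, with 29 reads in Ctrl and 0 in KD at D0. Both values at D0 in that experiment were below 1 RPKM, so the pair was not among the genes compared.

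*Wnt16*, a ligand known from bone and joint tissue (chromosome 6, 22238227 to 22250409), was lower in K36M cells at D0 and higher at D7. WT cells had 3.06, 0.126 and 0.721 RPKM at D0, D2 and D7 and K36M cells had 0.0907, 0.527 and 7.81, and the K36M to WT log2 ratio went from -5.08 (95% counting interval -7.38 to -3.49) at D0 to 3.44 (95% counting interval 2.69 to 4.28) at D7. The D0 value of K36M cells rests on 3 reads against 109 in WT. With PPARγ it was at 0.110 and 0.109 RPKM in WT and 0.123 and 0.284 in K36M cells, and it had 0.699 and 0.0596 in Ctrl and 1.27 and 0.646 in KD. The WT level at D0 was 4.38 times that of Ctrl cells, so the 2 control populations were themselves over 2-fold apart.

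The remaining 5 ligands that reached 1 RPKM were low, and 3 of them (*Wnt11*, *Wnt4* and *Wnt9a*) were higher in K36M than in WT cells on at least 1 day. *Wnt11*, a ligand of β-catenin-independent signalling, had 0.989, 0.263 and 0.512 RPKM in WT and 2.11, 0.716 and 0.470 in K36M cells, a D0 log2 ratio of 1.09 (95% counting interval 0.63 to 1.57). With PPARγ it had 0.792 and 1.76 RPKM in WT and 1.68 and 2.52 in K36M cells, and it had 0.762 and 0.374 in Ctrl and 0.185 and 0.305 in KD. The promoter of *Wnt11* is among those with a Tcf/Lef match. *Wnt4*, a ligand known from kidney and gonad development, had 0.159, 0.178 and 0.118 RPKM in WT and 0.158, 2.36 and 1.65 in K36M, 0.0842 and 0.0633 in PPARγ WT, 0.966 and 0.393 in PPARγ K36M, 0.927 and 0.285 in Ctrl and 0.690 and 0.207 in KD cells. Its K36M to WT log2 ratio was 3.73 (95% counting interval 2.90 to 4.68) at D2 and 3.81 (95% counting interval 2.62 to 5.30) at D7. *Wnt9a*, known from joint formation, had 1.11, 0.426 and 0.498 RPKM in WT and 1.97, 0.625 and 1.65 in K36M, 0.610 and 0.729 in PPARγ WT, 2.23 and 1.67 in PPARγ K36M, 0.503 and 0.404 in Ctrl and 1.57 and 1.86 in KD cells. It was over 2-fold higher in K36M cells at D7 and with PPARγ in both treatments, and in KD cells at D0 and D2, where the log2 ratios were 1.64 (95% counting interval 1.05 to 2.27) and 2.20 (95% counting interval 1.58 to 2.87). At D0 Ctrl cells themselves were over 2-fold below WT cells in *Wnt9a*, at 0.503 against 1.11 RPKM. *Wnt2b*, a ligand that activates β-catenin, exceeded 1 RPKM only in the PPARγ K36M libraries, with 4.16 and 1.64 RPKM in DMSO and Rosi against 0.219 and 0.254 in WT, and with 0.445, 0.322 and 0.336 in WT, 0.705, 0.581 and 0.756 in K36M, 0.411 and 0.403 in Ctrl and 0.337 and 0.333 in KD cells otherwise. *Wnt2*, its close relative, exceeded 1 RPKM only in KD cells at D0, with 1.52 and 0.0268 RPKM at D0 and D2 against 0.694 and 0 in Ctrl. It had 0.0442, 0 and 0.213 in WT and 0.0714, 0.0377 and 0.0774 in K36M cells, and 0.739 and 0.143 in PPARγ WT and 0.602 and 0.149 in PPARγ K36M cells.

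The Frizzled receptors did not move together. *Fzd4* and *Fzd8* were lower with K36M and with KD, *Fzd6* was higher with both, and *Fzd7* did not change over 2-fold in any of the 17 comparisons, with 7.77 to 15.4 RPKM. *Fzd4*, a receptor of both Wnt ligands and Norrin (chromosome 7, 96552876 to 96558620, promoter shown above), rose from D0 to D2 in every population. In K36M cells it was over 2-fold lower at D7 than at D2. WT cells had 1.43, 12.7 and 20.7 RPKM of *Fzd4* at D0, D2 and D7, K36M cells 0.533, 5.91 and 2.80, Ctrl cells 1.81 and 16.2 at D0 and D2, and KD cells 0.452 and 1.63. From D0 to D2 it rose 8.87-fold in WT, 11.1-fold in K36M, 8.96-fold in Ctrl and 3.61-fold in KD. At each day the perturbed library was below its control, with K36M to WT log2 ratios of -1.43 (95% counting interval -1.99 to -0.89) at D0, -1.10 (95% counting interval -1.30 to -0.91) at D2 and -2.89 (95% counting interval -3.17 to -2.62) at D7. The KD to Ctrl log2 ratio was -2.00 (95% counting interval -2.64 to -1.42) at D0 and -3.32 (95% counting interval -3.62 to -3.03) at D2. Rosi raised *Fzd4* in cells with PPARγ from 0.948 to 9.10 RPKM in WT and from 0.579 to 2.40 in K36M cells. The K36M to WT log2 ratio was -1.92 (95% counting interval -2.23 to -1.63) in Rosi, and the DMSO pair was below 1 RPKM. The 5 libraries with the most *Fzd4* were also the 5 with the highest summed adipocyte markers (2077 to 5750 RPKM), and the part of these markers in the result was not tested.

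*Fzd8*, another receptor that couples to β-catenin, was lower in all 7 libraries with K36M or KD than in their 7 controls. It had 7.14, 7.67 and 5.81 RPKM in WT and 2.69, 3.10 and 2.20 in K36M, 4.26 and 4.97 in PPARγ WT, 1.77 and 2.36 in PPARγ K36M, 5.66 and 5.86 in Ctrl and 1.53 and 1.76 in KD cells. The lowest control value, 4.26 RPKM, exceeded the highest perturbed value, 3.10 RPKM. Its K36M to WT log2 ratios were -1.41, -1.31 and -1.40 at D0, D2 and D7 and -1.27 and -1.07 in DMSO and Rosi, and its KD to Ctrl log2 ratios were -1.89 and -1.74. Between Ctrl and WT it differed by -0.34 at D0 and -0.39 at D2 (log2).

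*Fzd6*, a receptor known for planar cell polarity and for restraining β-catenin signals, went the other way. It had 3.75, 2.92 and 1.27 RPKM in WT and 9.18, 5.38 and 3.67 in K36M cells at D0, D2 and D7, 1.45 and 0.933 in PPARγ WT, 5.03 and 5.42 in PPARγ K36M, 2.08 and 2.06 in Ctrl and 22.1 and 20.1 in KD cells. Every perturbed library was above its own control. The ratio was over 2-fold in all of these pairs except K36M to WT at D2, where the log2 ratio was 0.88 (95% counting interval 0.62 to 1.14). In KD cells *Fzd6* was 10.6-fold higher at D0 and 9.80-fold higher at D2.

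**Figure D2:**
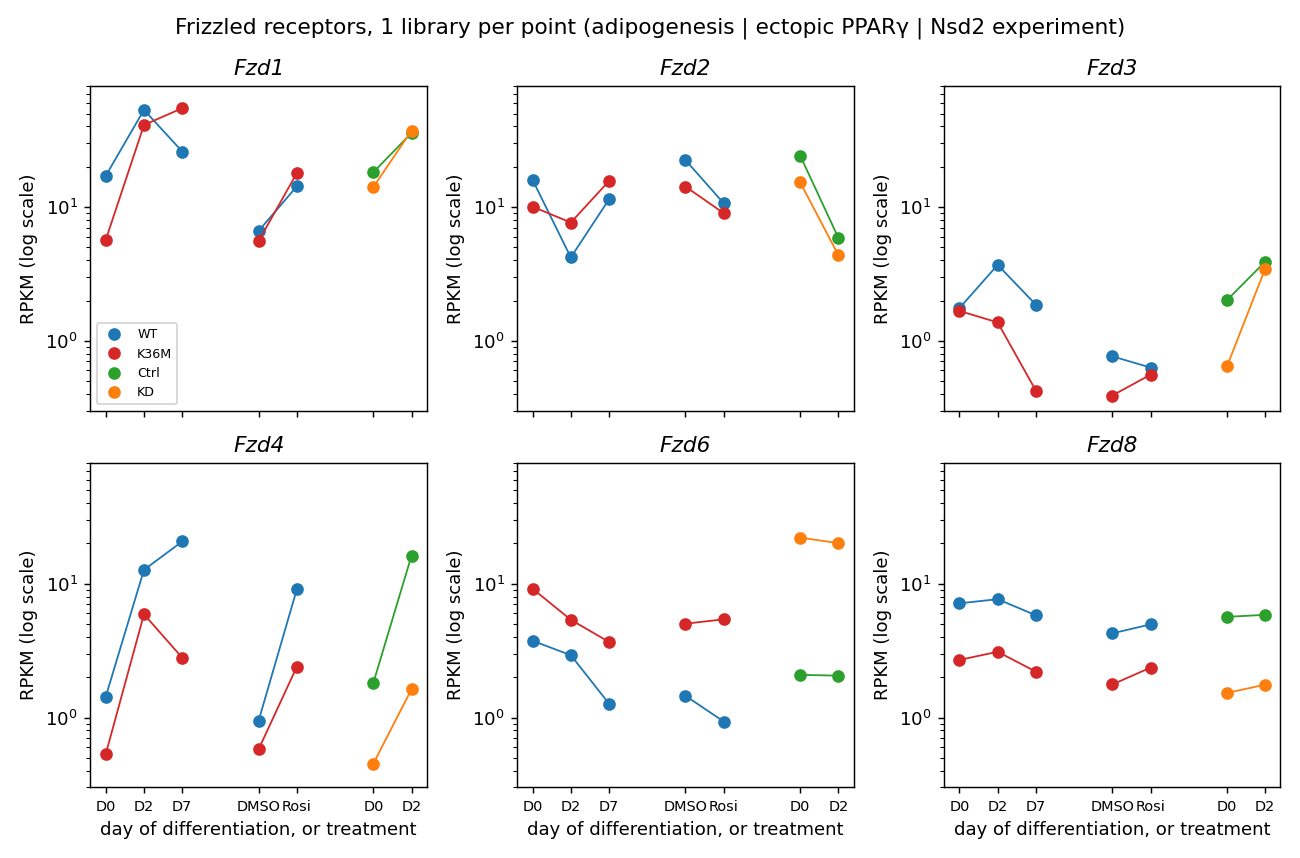
RPKM on a log axis of 6 Frizzled receptors, 1 point per library, at D0, D2 and D7 in WT and K36M cells, in DMSO and Rosi with ectopic PPARγ, and at D0 and D2 in Ctrl and KD cells. *Fzd4* rises from D0 to D2 in all 4 populations but stays lower with K36M and KD, *Fzd8* is lower and *Fzd6* higher with both at each point.

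*Fzd1*, *Fzd2* and *Fzd3* were each over 2-fold different between D0 and D2 in at least 2 populations, and *Fzd1* and *Fzd3* also between K36M and WT cells. *Fzd1* had 17.1, 53.3 and 26.0 RPKM in WT and 5.68, 41.0 and 54.8 in K36M, 6.63 and 14.3 in PPARγ WT, 5.58 and 17.9 in PPARγ K36M, 18.2 and 35.8 in Ctrl and 14.1 and 37.3 in KD cells. It was higher at D2 than at D0 in all 4 populations, 3.12-fold in WT, 7.22-fold in K36M, 1.97-fold in Ctrl, which was below the 2-fold threshold, and 2.65-fold in KD, and Rosi raised it 2.16-fold and 3.22-fold in WT and K36M cells. After D2 it fell in WT but not in K36M cells, so the K36M to WT log2 ratio was -1.59 (95% counting interval -1.74 to -1.44) at D0 and 1.08 (95% counting interval 0.99 to 1.17) at D7, and 0.97 at D7 relative to the shift of all genes. *Fzd2* had 15.9, 4.20 and 11.4 RPKM in WT and 10.1, 7.66 and 15.7 in K36M, 22.4 and 10.7 in PPARγ WT, 14.2 and 8.99 in PPARγ K36M, 24.3 and 5.88 in Ctrl and 15.3 and 4.37 in KD cells. It was lower at D2 than at D0 by 3.80-fold in WT, 4.12-fold in Ctrl and 3.50-fold in KD, and by 1.31-fold in K36M cells. *Fzd3*, a receptor known from axon guidance, had 1.75, 3.69 and 1.86 RPKM in WT and 1.67, 1.37 and 0.424 in K36M, 0.765 and 0.631 in PPARγ WT, 0.390 and 0.558 in PPARγ K36M, 2.01 and 3.91 in Ctrl and 0.644 and 3.46 in KD cells. Its D2 level in WT, Ctrl and KD cells was 3.69, 3.91 and 3.46 RPKM, against 1.37 in K36M cells, a K36M to WT log2 ratio of -1.43 (95% counting interval -1.65 to -1.21). At D7 this ratio was -2.13 (95% counting interval -2.54 to -1.75), and at D0 the KD to Ctrl ratio was -1.65 (95% counting interval -1.92 to -1.37).

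*Fzd5* and *Fzd9* were called in fewer comparisons. *Fzd5* had 4.72, 7.07 and 4.96 RPKM in WT and 4.88, 4.23 and 4.88 in K36M, 2.23 and 2.65 in PPARγ WT, 2.92 and 2.76 in PPARγ K36M, 3.22 and 4.53 in Ctrl and 0.868 and 2.60 in KD cells, with 3.71-fold less in KD at D0. *Fzd9* had 0.222, 1.24 and 0.107 RPKM in WT and 0.430, 0.681 and 0.116 in K36M, 0.392 and 0.201 in PPARγ WT, 0.545 and 0.674 in PPARγ K36M, 0.288 and 0.776 in Ctrl and 0.272 and 1.18 in KD cells, and was above 1 only in WT and KD cells at D2. The WT and Ctrl values at D2 lay on both sides of 1 RPKM.

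The co-receptors *Lrp5* and *Lrp6*, which bind Wnt together with Frizzled, were expressed in all libraries, and apart from *Lrp6* between D0 and D2 in K36M cells they differed over 2-fold only with PPARγ and Rosi. *Lrp6* had 16.8, 32.4 and 23.0 RPKM in WT and 12.4, 25.5 and 16.3 in K36M, 9.24 and 20.0 in PPARγ WT, 7.40 and 7.09 in PPARγ K36M, 15.2 and 22.0 in Ctrl and 14.4 and 19.7 in KD cells. Rosi raised it 2.16-fold in WT cells with PPARγ, whereas the K36M values in DMSO and Rosi differed by 1.04-fold. *Lrp5* had 18.3, 25.9 and 25.8 RPKM in WT and 12.3, 18.0 and 20.5 in K36M, 21.7 and 25.1 in PPARγ WT, 11.2 and 8.99 in PPARγ K36M, 18.9 and 25.5 in Ctrl and 14.6 and 15.8 in KD cells. In Rosi, the K36M to WT log2 ratio was -1.48 (95% counting interval -1.61 to -1.35) for *Lrp5* and -1.50 (95% counting interval -1.61 to -1.39) for *Lrp6*. *Ror2*, a Wnt5a receptor, had 7.30, 8.31 and 5.26 RPKM in WT and 6.51, 8.34 and 10.7 in K36M, 8.52 and 6.39 in PPARγ WT, 6.04 and 4.64 in PPARγ K36M, 10.0 and 8.80 in Ctrl and 7.99 and 7.44 in KD cells, and was called only between K36M and WT at D7, at 2.04-fold. *Ror1*, its paralog, exceeded 1 RPKM only in Ctrl cells at D2. *Ror1* had 0.600 and 2.04 RPKM at D0 and D2 in Ctrl and 0.0162 and 0.0320 in KD, and 0.132, 0.547 and 0.721 in WT, 0.0142, 0.180 and 0.208 in K36M, 0.0649 and 0.0683 in PPARγ WT and 0.0579 and 0.112 in PPARγ K36M cells. Its KD to Ctrl log2 ratio at D2 was -6.00 (95% counting interval -9.06 to -4.12), from 2 reads in KD and 146 in Ctrl. At D2 the Ctrl level itself was 3.74-fold above that of WT cells.

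The secreted inhibitors showed the widest range of levels of all Wnt genes. *Sfrp1* and *Sfrp2* encode secreted Frizzled-related proteins, which bind Wnt ligands outside the cell. *Sfrp1* (chromosome 8, 24521974 to 24560104) had 51.7, 1.95 and 17.2 RPKM at D0, D2 and D7 in WT cells, and K36M cells had 8.17, 18.8 and 214. WT cells thus lost most of it by D2 and regained part by D7, whereas it rose at each step in K36M cells. Between D0 and D2 the log2 ratio was -4.73 (95% counting interval -4.96 to -4.50) in WT and 1.20 (95% counting interval 1.06 to 1.34) in K36M cells. Accordingly, the K36M to WT log2 ratio was -2.66 (95% counting interval -2.78 to -2.55) at D0, 3.27 (95% counting interval 3.03 to 3.51) at D2 and 3.63 (95% counting interval 3.54 to 3.73) at D7. In the KD experiment there was no such crossing. *Sfrp1* had 44.0 and 2.83 RPKM at D0 and D2 in Ctrl and 1.16 and 0.660 in KD, 38.1-fold less in KD at D0 and 4.28-fold less at D2. With PPARγ the 4 levels lay close together, at 7.51 and 8.67 RPKM in WT and 11.9 and 7.17 in K36M cells, and none of these pairs differed over 2-fold.

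*Sfrp2* (chromosome 3, 83570243 to 83578238, promoter shown above) was lower in the K36M or KD library of every pair. It had 44.4, 3.24 and 125 RPKM in WT and 2.82, 2.43 and 15.1 in K36M cells at D0, D2 and D7. The K36M to WT log2 ratio was -3.98 (95% counting interval -4.27 to -3.70) at D0 and -3.06 (95% counting interval -3.22 to -2.90) at D7, but -0.41 (95% counting interval -0.88 to 0.04) at D2, when both libraries were low. Ctrl cells had 96.4 and 5.95 RPKM at D0 and D2 and KD cells 0.143 and 0.0849, where the KD values rest on 5 and 3 reads and the Ctrl values on 3810 and 240. The KD to Ctrl log2 ratio at D0 was -9.39 (95% counting interval -11.02 to -8.17), the largest among the 27 genes compared, and at D2 it was -6.13 (95% counting interval -8.42 to -4.57). Rosi lowered *Sfrp2* in cells with PPARγ from 12.6 to 3.41 RPKM in WT and from 2.34 to 0.355 in K36M cells. The K36M to WT log2 ratio in these cells was -2.43 (95% counting interval -2.74 to -2.14) in DMSO and -3.26 (95% counting interval -4.43 to -2.29) in Rosi. Ctrl cells had 2.17 times the WT level at D0, so control populations also differed, though by far less than either perturbation at D0.

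*Sfrp4*, of the same family, was low and, like *Sfrp2*, lower at D0 with both perturbations. It had 3.83, 0 and 4.36 RPKM in WT and 0.315, 0.227 and 1.44 in K36M, 0.183 and 0.0688 in PPARγ WT, 0.0934 and 0.225 in PPARγ K36M, 2.27 and 0.198 in Ctrl and 0.131 and 0.0322 in KD cells. At D2 it had 0 reads in WT cells after 144 at D0, at least 42.9-fold lower when 3 reads are taken as the floor. The D0 log2 ratio was -3.60 (95% counting interval -4.64 to -2.72) between K36M and WT and -4.12 (95% counting interval -6.03 to -2.71) between KD and Ctrl.

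*Dkk3*, the divergent member of the Dickkopf family of inhibitors (chromosome 7, 119259533 to 119302571), was lower at D2 than at D0 in WT and higher in K36M cells, as was *Sfrp1*. It had 2.94, 0.967 and 8.41 RPKM in WT and 1.59, 3.92 and 19.9 in K36M cells at D0, D2 and D7, and the log2 ratio of D2 to D0 was -1.60 (95% counting interval -2.04 to -1.19) in WT and 1.30 (95% counting interval 0.94 to 1.67) in K36M cells. The K36M to WT log2 ratio was 2.02 (95% counting interval 1.59 to 2.47) at D2 and 1.24 (95% counting interval 1.06 to 1.42) at D7. Ctrl cells had 5.26 and 1.33 RPKM at D0 and D2 and KD cells 3.25 and 0.0675, a KD to Ctrl log2 ratio of -4.30 (95% counting interval -6.21 to -2.90) at D2 from 4 reads in KD and 90 in Ctrl. With PPARγ it had 0.466 and 0.306 RPKM in WT and 2.19 and 0.188 in K36M cells. *Dkk2*, a Lrp5 and Lrp6 inhibitor of that family, exceeded 1 RPKM only in WT cells at D7. *Dkk2* had 0.303, 0.0565 and 1.56 RPKM in WT and 0.109, 0.0646 and 0.111 in K36M, 0.707 and 0.0816 in PPARγ WT, 0.0775 and 0.107 in PPARγ K36M, 0.587 and 0.0402 in Ctrl and 0.294 and 0.0153 in KD cells.

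The R-spondins bind Lgr receptors and keep Frizzled at the cell surface. At D7, K36M cells had less *Rspo2* and more *Rspo3* than WT cells, although both genes rose over 2-fold from D2 to D7 in either population. *Rspo2* (chromosome 15, 42852357 to 43002364) had 18.4, 0.392 and 6.11 RPKM in WT and 0.859, 0.287 and 2.60 in K36M cells at D0, D2 and D7, a K36M to WT log2 ratio of -4.42 (95% counting interval -4.83 to -4.04) at D0 and -1.24 (95% counting interval -1.57 to -0.91) at D7. With PPARγ it had 1.56 and 2.50 RPKM in WT and 0.160 and 0.142 in K36M cells, and it had 6.20 and 0.238 at D0 and D2 in Ctrl and 0.0172 and 0.0339 in KD. Every K36M or KD value was below its control. At D0 the KD value is 1 read against 409 in Ctrl, a log2 ratio of -8.49 (95% counting interval -13.80 to -6.01). Ctrl cells themselves had over 2-fold less *Rspo2* than WT cells at D0, 6.20 against 18.4 RPKM. *Rspo3* (chromosome 10, 29172915 to 29255673) had 1.39, 0.371 and 3.42 RPKM in WT and 0.904, 1.97 and 23.8 in K36M cells, and like *Sfrp1* it fell by D2 in WT but rose in K36M cells. The D2 to D0 log2 ratio was -1.90 (95% counting interval -2.76 to -1.12) in WT and 1.12 (95% counting interval 0.53 to 1.72) in K36M cells, and the K36M to WT log2 ratio was 2.40 (95% counting interval 1.60 to 3.27) at D2 and 2.80 (95% counting interval 2.51 to 3.11) at D7. In the other 8 libraries *Rspo3* was below 1 RPKM, with 0.0576 and 0.0505 in PPARγ WT, 0.360 and 0.198 in PPARγ K36M, 0.422 and 0.352 in Ctrl and 0.120 and 0.0945 in KD cells. *Lgr4*, an R-spondin receptor, had 12.8, 16.5 and 9.30 RPKM in WT and 5.75, 15.7 and 7.07 in K36M, 17.0 and 24.1 in PPARγ WT, 5.94 and 9.24 in PPARγ K36M, 9.07 and 9.36 in Ctrl and 22.2 and 8.04 in KD cells. At D0 K36M cells had 2.23-fold less of it than WT cells and KD cells 2.45-fold more than Ctrl cells, so the perturbations moved it in opposite directions.

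**Figure D3:**
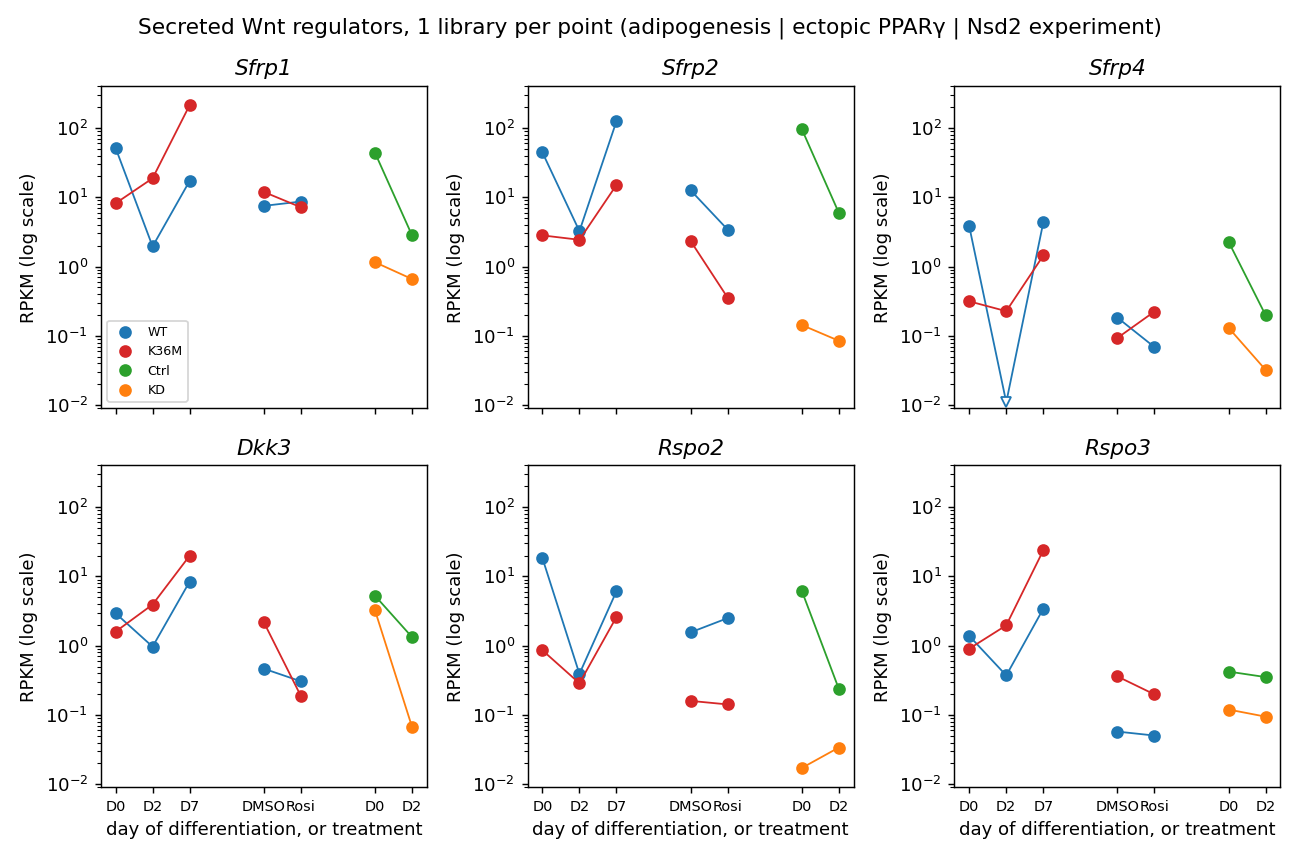
RPKM on a log axis of 6 secreted Wnt regulators, 1 point per library, at D0, D2 and D7 in WT and K36M cells, in DMSO and Rosi with ectopic PPARγ, and at D0 and D2 in Ctrl and KD cells, with an open triangle for a value of 0. The WT lines of *Sfrp1*, *Dkk3* and *Rspo3* dip at D2 while the K36M lines rise, and the KD points of *Sfrp1*, *Sfrp2* and *Rspo2* lie far below the Ctrl points at D0.

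Preadipocyte markers were called in the same comparisons as several of these secreted regulators, in 1 direction over time but in both directions in some K36M or KD comparisons. The summed RPKM of 7 preadipocyte and stromal markers (*Pdgfra*, *Pdgfrb*, *Dlk1*, *Cd34*, *Ly6a*, *Col1a1* and *Thy1*) was 907, 111 and 714 in WT cells at D0, D2 and D7 and 395, 291 and 1157 in K36M cells. It was 1913 and 139 in Ctrl cells at D0 and D2 and 503 and 50.9 in KD cells, and with PPARγ it was 1051 and 804 in WT and 1129 and 546 in K36M cells. *Col1a1* alone was 560 RPKM of this sum in WT, 223 in K36M, 1678 in Ctrl and 263.5 in KD cells at D0. From D0 to D2, all 7 markers were lower in WT and in KD cells, 6 of 6 compared in Ctrl and 2 of 7 in K36M cells. Among all genes, 17.3%, 16.8%, 16.1% and 11.2% were lower in these 4 comparisons. From D2 to D7, all 7 were higher in WT and in K36M cells, against 15.7% of all genes in each. Of the 7 markers, 3 were lower and 1 higher in K36M than in WT cells at D0, 4 were higher at D2 and 3 at D7. Of all genes, 6.36% were lower and 5.02% higher at D0, and 11.2% and 11.7% were higher at D2 and D7. In KD cells 5 were lower and 2 higher (*Cd34* and *Dlk1*) at D0, and 5 lower and 1 higher (*Dlk1*) at D2. The shares of all genes were 10.8% and 6.61% at D0 and 9.57% and 4.88% at D2. *Dlk1* had 38.1 and 3.51 RPKM at D0 and D2 in Ctrl and 171 and 27.9 in KD cells. The part of these markers in the *Sfrp*, *Dkk3* and *Rspo* results was not tested.

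*Ctnnb1* and *Axin1* stayed within 2-fold in every comparison, while some other genes of the destruction complex and its regulators did not. *Ctnnb1* had 150.4, 146 and 140.0 RPKM in WT and 168, 131 and 181 in K36M, 127 and 126 in PPARγ WT, 132 and 125 in PPARγ K36M, 139 and 154 in Ctrl and 202 and 163 in KD cells. The level of its mRNA does not measure β-catenin protein, which is set by degradation. *Axin1*, the scaffold of the destruction complex, had 17.4, 13.6 and 13.6 RPKM in WT and 20.4, 16.9 and 17.1 in K36M, 15.9 and 13.4 in PPARγ WT, 14.5 and 13.0 in PPARγ K36M, 16.5 and 17.1 in Ctrl and 20.0 and 22.6 in KD cells. Neither gene was called in any of the 17 comparisons. *Gsk3b*, a kinase that marks β-catenin, had a log2 ratio of 1.08 from D0 to D2 in Ctrl and 1.10 in KD cells, 1.21 with Rosi in PPARγ WT cells and -1.20 between Ctrl and WT at D0. *Amer1* was higher with Rosi in PPARγ WT cells (1.16), and *Dvl2*, which relays the signal from Frizzled, was higher in KD than in Ctrl cells at D0 (1.04) and higher in Ctrl than in WT cells at D2 (1.17). The feedback inhibitor *Nkd2* was higher in K36M than in WT cells at D0, D2 and D7 (log2 ratios of 1.33, 2.19 and 3.20) and lower in KD than in Ctrl cells at D0 (-3.80). These 4 genes were chosen after their values were seen, and *Apc2* and *Nkd1* of the same 14-gene list were also called. The rest of the list (*Apc*, *Btrc*, *Csnk1a1*, *Csnk1d*, *Csnk1e*, *Dvl1*, *Dvl3* and *Gsk3a*) was called in no comparison. In K36M cells 1 of 12 compared was higher at D0, 2 of 13 at D2 and 3 of 14 at D7, and 0 were lower. Among all genes 5.02%, 11.2% and 11.7% were higher. In KD cells 1 was higher and 1 lower of 13 at D0 and 0 of 11 were called at D2, beside 17.4% and 14.4% of all genes. Between K36M and WT cells the log2 ratio was 2.27 for *Apc2* at D7 and 4.22 for *Nkd1* at D2. *Axin2* had 0.0878, 0.111 and 0.511 RPKM in WT and 0.0828, 0.450 and 0.865 in K36M cells at D0, D2 and D7, and 0.226 and 0.0583 in Ctrl and 0.0539 and 0.0399 in KD, all below the minimum for a comparison.

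Of the nuclear effectors, *Lef1* and *Tcf7* were higher with either perturbation at D0. *Lef1* had 0.476, 0.469 and 0.367 RPKM in WT and 1.74, 0.487 and 0.467 in K36M, 0.318 and 0.172 in PPARγ WT, 0.585 and 0.386 in PPARγ K36M, 1.07 and 0.263 in Ctrl and 3.78 and 1.45 in KD cells. Its log2 ratio was 1.87 (95% counting interval 1.22 to 2.58) between K36M and WT at D0, 1.82 (95% counting interval 1.36 to 2.30) between KD and Ctrl at D0 and 2.47 (95% counting interval 1.59 to 3.45) at D2. *Tcf7* had 1.05, 0.612 and 0.338 RPKM in WT and 2.60, 0.754 and 1.91 in K36M, 0.475 and 0.245 in PPARγ WT, 3.32 and 0.923 in PPARγ K36M, 0.910 and 0.535 in Ctrl and 3.54 and 1.45 in KD cells. The log2 ratio of *Tcf7* was 1.31 (95% counting interval 0.82 to 1.82) between K36M and WT at D0, 2.50 (95% counting interval 1.51 to 3.65) at D7, 2.80 (95% counting interval 2.17 to 3.50) with PPARγ in DMSO, 1.96 (95% counting interval 1.44 to 2.50) between KD and Ctrl at D0 and 1.44 (95% counting interval 0.73 to 2.19) at D2. *Lef1* differed 2.25-fold between Ctrl and WT at D0, both near 1 RPKM or below. *Tcf7l1* and *Tcf7l2*, the family members with the higher levels, changed less. *Tcf7l1*, mostly known as a repressor, had 18.3, 39.1 and 28.1 RPKM in WT and 10.4, 23.1 and 21.5 in K36M, 21.4 and 22.0 in PPARγ WT, 10.4 and 11.2 in PPARγ K36M, 20.3 and 24.6 in Ctrl and 27.4 and 15.7 in KD cells. At D2 it was over 2-fold above D0 in WT and K36M cells, and with PPARγ and DMSO the K36M library had 2.06-fold less than the WT library. *Tcf7l2* stayed within 4.24 to 10.2 RPKM and was called in no comparison. Of the 4 epithelial markers *Cdh1*, *Epcam*, *Krt8* and *Krt18*, the summed level was 3.59 RPKM in K36M D0, 7.98 in KD D0, and 12.5 and 8.25 in the PPARγ K36M libraries, against 0.0534 to 2.41 in the other 10. In those 4 libraries most of it was *Krt18*, with *Cdh1* and *Epcam* below 1 RPKM in all 14 libraries, and its part in the levels of *Lef1* and *Tcf7* was not tested.

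The K36M and KD effects come from experiments that share no library and are set side by side. Of the 14 genes called in each, 9 were called in the same direction in both, which is 64.3% of each list. Over all genes at D0, 386 were called in the same direction in both, 27.7% of the 1394 called for K36M and 18.5% of the 2087 called for KD. *Fzd6*, *Lef1* and *Tcf7* were higher in both, and *Fzd4*, *Fzd8*, *Rspo2*, *Sfrp1*, *Sfrp2* and *Sfrp4* were lower in both. *Lgr4* was called in opposite directions. At D2 the lists had 7 and 10 genes, and *Fzd4* and *Fzd8*, lower in both, were the only ones called in the same direction (28.6% and 20.0% of the lists), against 18.5% and 20.7% over all genes. *Sfrp1* and *Dkk3* were called in opposite directions at D2, higher in K36M and lower in KD cells. Whether the K36M and KD effects differed was not tested.

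**Figure D4:**
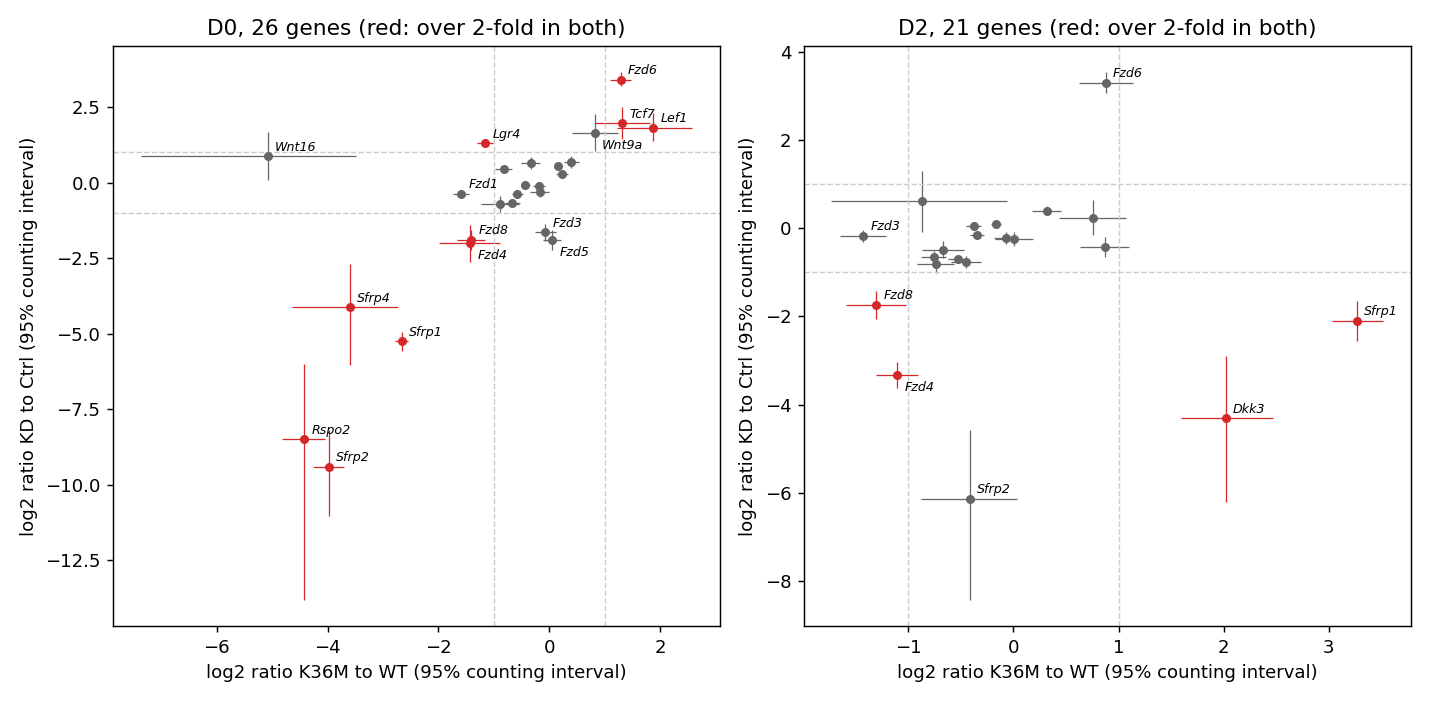
Log2 ratio of K36M to WT (horizontal axis) against log2 ratio of KD to Ctrl (vertical axis) of the Wnt pathway genes compared in both experiments, at D0 (left, 26 genes) and D2 (right, 21 genes), with 95% counting intervals as bars and the 2-fold limits as dashed lines. Red points are over 2-fold in both, and at D0 these are the 9 genes moving the same way and *Lgr4*, while at D2 *Sfrp1* and *Dkk3* lie at the lower right.

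Other genes of the pathway were read from a list of 56, all of them measured. Between K36M and WT cells, 7 were higher and 4 lower of 45 compared at D0 (all genes 5.02% and 6.36%), 10 higher and 2 lower of 45 at D2 (all genes 11.2% and 4.37%), and 10 higher and 4 lower of 47 at D7 (all genes 11.7% and 8.46%). Between KD and Ctrl cells, 5 were higher and 4 lower of 45 at D0, when 17.4% of all genes were called (6.61% and 10.8%), and 1 higher and 2 lower of 39 at D2, when 14.4% were called (4.88% and 9.57%). Known Wnt target genes made up 17 of the 56, and of 15 compared at D2, 6 were higher (*Ccn4*, *Ccn5*, *Ccnd1*, *Id2*, *Nkd1* and *Notum*) and 1 lower (*Jun*) in K36M cells, beside 11.2% and 4.37% of all genes. In KD cells at D2, of 12 target genes compared 1 was higher (*Klf5*) and 1 lower (*Tnfrsf19*), beside 4.88% and 9.57% of all genes.

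Of the genes of that list with 5 RPKM or more in either library, the 6 with the largest D2 ratios (K36M to WT or KD to Ctrl) were *Notum*, *Ccnd1*, *Ccn4*, *Wls*, *Igfbp4* and *Klf5*. *Notum*, a secreted enzyme that inactivates Wnt ligands, had 1.09, 0.804 and 1.00 RPKM in WT and 0.673, 6.80 and 4.50 in K36M cells at D0, D2 and D7, a D2 log2 ratio of 3.08 (95% counting interval 2.52 to 3.68). *Ccnd1*, the cell cycle gene for cyclin D1, had 23.9, 1.88 and 10.2 RPKM in WT and 52.0, 7.97 and 25.8 in K36M cells, a D2 log2 ratio of 2.09 (95% counting interval 1.80 to 2.38). *Ccn4*, a secreted protein first described as Wnt-induced, had 85.2, 7.42 and 7.88 RPKM in WT and 74.1, 28.5 and 44.5 in K36M cells, a D2 log2 ratio of 1.94 (95% counting interval 1.81 to 2.07). In WT cells *Ccnd1* and *Ccn4* were over 2-fold lower at D2 than at D0, whereas the WT values of *Notum* lay between 0.804 and 1.09 RPKM. *Wls*, the carrier that Wnt ligands need for secretion, had 117, 59.5 and 85.6 RPKM in WT and 117, 159 and 143 in K36M cells, a D2 log2 ratio of 1.42 (95% counting interval 1.35 to 1.48). In the KD experiment, *Igfbp4*, an IGF-binding protein that also binds Frizzled and Lrp6, had 6.59 and 336 RPKM at D0 and D2 in Ctrl and 102 and 90.9 in KD, a D2 log2 ratio of -1.89 (95% counting interval -1.94 to -1.83). *Klf5*, a transcription factor of early adipogenesis, had 1.35 and 2.47 RPKM in Ctrl and 7.65 and 6.27 in KD, a D2 log2 ratio of 1.34 (95% counting interval 0.97 to 1.73). At D2, *Ccnd1*, *Ccn4* and *Wls* were not called between KD and Ctrl, where *Notum* was below 1 RPKM. *Igfbp4* and *Klf5* were not called between K36M and WT at D2. The controls also differed, with Ctrl to WT log2 ratios of -1.52 (*Ccn4*), -2.56 (*Igfbp4*) and -1.305 (*Klf5*) at D0 and -1.015 (*Ccnd1*) at D2. *Notum* and *Wls* were called between them on neither day.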

How the data were processed

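RNA was extracted with Trizol and mRNA purified on Dynabeads before library preparation for Illumina sequencing. The values were deposited by the authors as RPKM per RefSeq transcript (29082 per library), that is, reads per transcript scaled to its length in kilobases and to the total of mapped reads. The submitters' processing notes name CASAVA 1.8.2 and build mm9, and the RNA-Seq aligner and counting program are not given in the sources used here. The ChIP-Seq samples of the series were not analysed here.

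Transcripts were joined to gene symbols through a RefSeq table (GRCm38.p6, names only), which matched 28436 transcripts (97.8%), and each gene was read from its transcript with the highest mean RPKM. Of the 54 genes, 7 had more than 1 transcript. Gene coordinates are from GENCODE M1 on NCBIM37 (mm9). Whole reads were recovered from the steps of the RPKM values (26945 of 26946 transcripts above 0 in at least 2 libraries, within 0.001 of a whole number, while 1275 transcripts above 0 in 1 library were not solved), and library totals were 12213559 to 24365867. PCR duplicates are not marked, so intervals (Clopper-Pearson, 95%) cover counting error only. RPKM is not a count and each condition has 1 library, so no test was run.

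The 17 comparisons used a threshold of 2-fold with an RPKM of 1 in either library. Values in every library are given for genes that reached 1 RPKM and passed 2-fold in at least 1 comparison, and for *Ctnnb1*, *Lrp6* and *Axin1*. Levels of other pathway genes are given when among the 6 with the largest D2 ratios and at 5 RPKM or more. Ratios of *Gsk3b*, *Amer1*, *Dvl2*, *Nkd2*, *Apc2*, *Nkd1*, *Ccn5* and *Id2* are given outside that rule, after their values were seen. The members and lists were chosen with earlier results of these data known. Alternatives were no minimum, a pseudocount of 1, scaling to the median gene ratio, summed transcripts and calls that need the interval to exclude equality. Recovery, calls and intervals were tested on simulated data. Python 3.11.15, numpy 2.4.6, scipy 1.17.1, pandas 2.3.3 and matplotlib 3.10.9 were used.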

Additional observations from a re-analysis of the deposited data

Results flagged for a closer look

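Over 9 pairs of contrasts, 5 genes moved over 2-fold one way in one group and the opposite way in the other, with 1 library behind each value. The difference was not tested in any of them. Opposite calls between the K36M and KD effects (*Lgr4* at D0, *Sfrp1* and *Dkk3* at D2) are given above and are not counted here.

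From D0 to D2, *Sfrp1* had a log2 ratio of -4.73 in WT and 1.20 in K36M cells, *Dkk3* had -1.60 and 1.30, and *Rspo3* had -1.90 and 1.12. *Sfrp1* had a K36M to WT log2 ratio of -2.66 at D0, which turned to 3.27 at D2 and 3.63 at D7. For *Wnt16* it was -5.08 at D0 and 3.44 at D7, and for *Fzd1* it was -1.59 at D0 and 1.08 at D7. The *Fzd1* ratio at D7 was below 2-fold relative to the shift of all genes.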

How the results depend on the processing

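Without the minimum of 1 RPKM, counts of Wnt pathway genes over 2-fold were above 1.5 times those reported in all 17 comparisons, through genes with few reads. They were 31, 25 and 31 between K36M and WT at D0, D2 and D7, 30 and 31 with PPARγ in DMSO and Rosi, and 27 and 25 between KD and Ctrl at D0 and D2. Over time they were 33 and 23 in WT (D2 to D0, D7 to D2), 30 and 29 in K36M, 28 in Ctrl and 24 in KD. With Rosi they were 22 in WT and 18 in K36M, and between Ctrl and WT 21 at D0 and 15 at D2. With a pseudocount of 1, 6 counts moved that far, to 9 for K36M to WT at D0, 9 and 7 for K36M from D0 to D2 and from D2 to D7, 7 for KD from D0 to D2, and 3 and 0 for Ctrl to WT at D0 and D2. Scaling to the median gene ratio moved 1 count that far, Ctrl to WT at D2, to 2. Summing transcripts, or asking the counting interval to exclude equality, moved none of the 17. Among 583 log2 ratios of single genes, scaling moved 42 beyond their counting interval, the pseudocount 174 and summing 0, and none of them that was called changed sign.

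The labels carry no replicate numbers and each ratio is of 2 libraries with no test, so no replicate block was fitted. A fit that takes days or treatments as pairs was not run. With 1 library per condition, the spread between cultures is unknown, and depth limits the genes below 1 RPKM, where 3 reads are 0.123 to 0.246 RPKM per kilobase.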
